A study of Homo sapiens with 12 samples.

Results

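The data described here are the open chromatin regions called around 8 genes of transcription factors that direct the germ layers of the embryo, in 3 ATAC-seq libraries of ARPE-19 cells and 3 of H7 cells. The genes are EOMES, TBXT, GATA4, GATA6, SOX17, FOXA2, HAND1 and CDX2, and every peak with at least 1 base within 50 kb of one of them was taken. This gave 64 of the 170706 peaks in the 6 lists, which merged into 27 of 84664 regions. ARPE-19 is a retinal pigment epithelial line grown in serum-supplemented medium. H7 is an embryonic stem cell line grown in mTeSR Plus. Neither line was given any further treatment in the labels, each library came from 500000 cells, and 1 line stands for each cell type, so that line and cell type cannot be told apart. The labels do not say whether the 3 libraries of a line came from separate cultures, and p-values then measure only the spread between these libraries.

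During gastrulation, cells that leave pluripotency pass through a state marked by the T-box factors EOMES and TBXT (Brachyury) and then become mesoderm or endoderm. The zinc finger factors GATA4 and GATA6, the HMG-box factor SOX17 and the forkhead factor FOXA2 act in endoderm, and GATA4 and GATA6 act in the heart as well. HAND1, a basic helix-loop-helix factor, acts in lateral mesoderm, heart and extraembryonic tissue, and the homeobox factor CDX2 acts in trophectoderm and hindgut. In embryonic stem cells genes of this kind are silent or nearly so, and many of their promoters are known to carry an activating and a repressive histone mark together, a state called poised. ATAC-seq, in which the Tn5 transposase cuts accessible DNA, does not read those marks, so a peak or its absence does not show whether a gene is poised.

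Promoters of such genes tend to be rich in CpG dinucleotides. The RefSeq promoter table (GRCh38.p14, 250 bases before to 50 after a start) held 5 of the 8 genes with 6 entries; GATA4, SOX17 and FOXA2 had none. The 6 promoters held 16 to 25 CpG, where the median of all 35116 promoters was 14. GATA6 is shown because its 5′ end lay under a called peak, EOMES because a peak lay just inside it, and TBXT, at the more upstream of its 2 entries, because no library had a peak near it. Capitals mark each CG, a motif that reads the same on both strands.
GATA6, chr18:22169339-22169638, plus strand: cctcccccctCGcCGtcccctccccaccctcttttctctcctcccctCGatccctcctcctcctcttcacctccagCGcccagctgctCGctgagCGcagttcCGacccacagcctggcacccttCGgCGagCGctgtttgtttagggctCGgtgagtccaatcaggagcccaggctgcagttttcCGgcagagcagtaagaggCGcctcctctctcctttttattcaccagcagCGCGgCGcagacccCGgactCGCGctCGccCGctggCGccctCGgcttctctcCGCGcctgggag
EOMES, chr3:27722274-27722573, minus strand: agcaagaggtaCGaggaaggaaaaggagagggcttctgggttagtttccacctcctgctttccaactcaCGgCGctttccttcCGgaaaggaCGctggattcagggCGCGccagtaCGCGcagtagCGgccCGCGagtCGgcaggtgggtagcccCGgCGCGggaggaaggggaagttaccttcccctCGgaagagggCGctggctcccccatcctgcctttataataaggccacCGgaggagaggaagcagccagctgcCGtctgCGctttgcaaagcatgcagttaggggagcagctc
TBXT, chr6:166168606-166168905, minus strand: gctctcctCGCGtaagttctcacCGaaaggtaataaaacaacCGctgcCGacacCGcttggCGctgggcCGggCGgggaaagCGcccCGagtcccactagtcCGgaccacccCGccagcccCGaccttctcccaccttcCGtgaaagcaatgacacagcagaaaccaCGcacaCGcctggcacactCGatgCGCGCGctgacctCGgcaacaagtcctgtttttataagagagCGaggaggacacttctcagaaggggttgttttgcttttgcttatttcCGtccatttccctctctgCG
These positions are on GRCh38.p14 and all others below are on hg19. The GATA6 and this TBXT promoter held 25 CpG each, a number that 32.0% of all promoters reach, and the EOMES promoter held 21, which 39.5% reach. The other TBXT entry held 22, which 37.7% reach. The HAND1 promoter held 21, which 39.5% reach, and the CDX2 promoter held 16, which 47.5% reach.

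The H7 lists were shorter than the ARPE-19 lists, with 8622 to 15351 peaks against 40110 to 48460. The genome-wide background, the reads expected per position as recovered from the lists, was 0.592 to 0.653 in H7 and 0.425 to 0.483 in ARPE-19, so by this measure H7 was not the shallower line. Where the local background was no higher than that, a peak needed at least 5 to 6 summit reads to be called in H7 and 4 in ARPE-19. Relative to the background this floor was 7.65 to 9.48 in H7 and 8.28 to 9.40 in ARPE-19. Where a gene has no peak, its chromatin was not called open at this depth, and it may still be open to a lesser degree. With 3 libraries against 3, an exact permutation test cannot give a p below 0.1. Whether the lines carry the open regions that define their cell types was not analysed here.

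Around the 8 genes more peaks were called in ARPE-19 than in H7. The 3 ARPE-19 libraries had 16, 16 and 15 peaks in the windows and the 3 H7 libraries had 6, 6 and 5. All ARPE-19 values lay above all H7 values. The means were 15.7 ± 0.58 and 5.67 ± 0.58 (SD, n = 3), which on the log2 scale put H7 at -1.47 relative to ARPE-19 (SE 0.093, exact two-sided permutation p = 0.1). In ARPE-19 the peaks covered 4888 ± 194 bases, while the H7 peaks covered 1788 ± 295 (SD, n = 3), with H7 at -1.46 on the log2 scale (SE 0.14, exact permutation p = 0.1).

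Set against the length of each list, the direction was not kept. As a share of each list, the windows held 0.0360%, 0.0399% and 0.0310% of the ARPE-19 peaks and 0.0391%, 0.0438% and 0.0580% of the H7 peaks. The shares of the lines overlapped, and their difference of 0.0113 percentage points in favour of H7 had an exact permutation p of 0.2 (SE 0.0062, n = 3 per line). It was 0.0058 percentage points without H7 replicate 3. The lines were apart in favour of H7 with a -log10 q limit of 5, by 0.0309 points, and with windows of 100 kb, by 0.0160 points, and apart in favour of ARPE-19 with windows of 20 kb, at -0.0091 points (exact permutation p = 0.1 for each). These shares rest on few H7 peaks. The H7 libraries had 2, 3 and 3 peaks with the q limit, 10, 11 and 7 within 100 kb, and 1, 1 and 0 within 20 kb. Peaks were 0.986 to 1.27 times as dense here as over the genome in ARPE-19, and 1.24 to 1.85 times in H7. These ranges overlapped, and the H7 ratios rest on 5 to 6 peaks per library. When the 8622 peaks with the highest -log10 p were taken from every library, ARPE-19 had 3, 4 and 3 peaks in the windows and H7 had 4, 4 and 5, a log2 difference of 0.38 (exact permutation p = 0.3), with its sign turned.

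**Figure D1:**
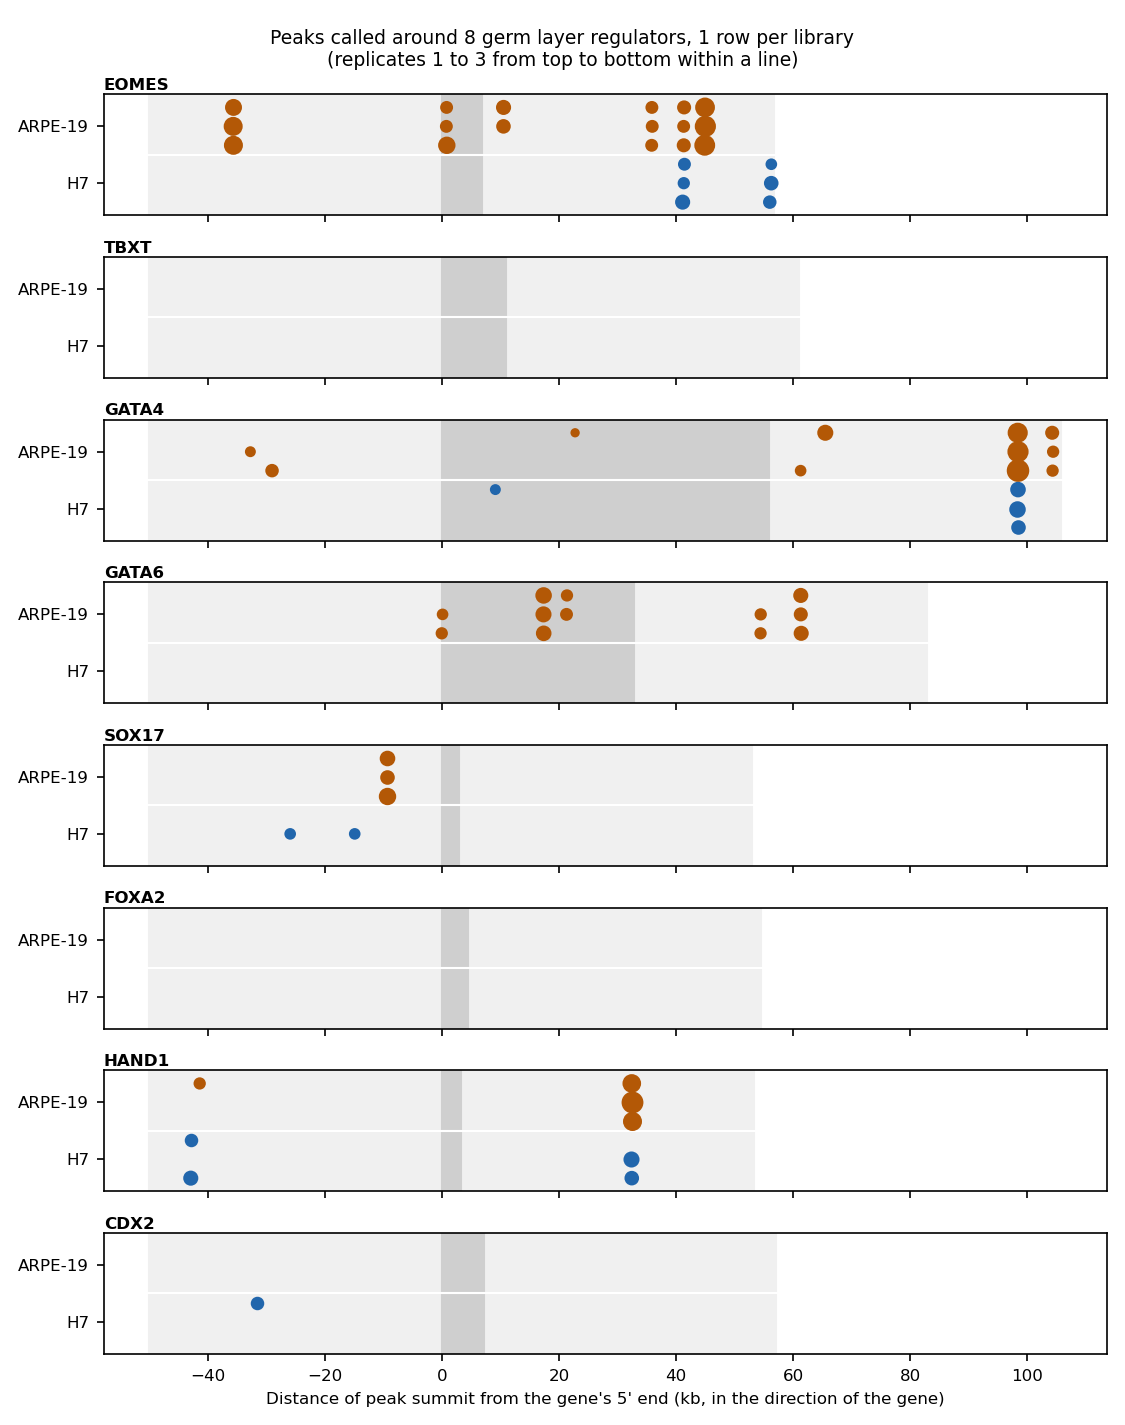
Position of every peak summit within 50 kb of the 8 genes, in kb from the gene's 5′ end in the direction of the gene; dark grey is the gene, light grey the window, each row of points is 1 library (ARPE-19 orange, H7 blue) and a larger point has more summit reads. GATA6 has no H7 points, TBXT and FOXA2 have no points at all, and the only H7 point inside a gene is that of replicate 1 at GATA4.

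Of the 27 merged regions, 8 had a call in each ARPE-19 library and none in H7, which is 29.6%, where 26% of all regions of the genome did. They lay at EOMES (4), GATA6 (2), GATA4 (1) and SOX17 (1). The opposite class, with a call in each H7 library and none in ARPE-19, had 1 member, at EOMES, against 1.82% of all regions. It had 2 members without H7 replicate 2, the added one lying at HAND1. Both regions called in all 6 libraries, at EOMES and GATA4, stand beside 1.82% of all regions. In all, 3 of 27 regions (11.1%) had peaks of both lines, against 8.51% over the genome, and 9 (33.3%) had an H7 peak, against 30.8%. Another 10 regions (37.0%) were called in 1 library, against 46.4%; 6 of these, or 22.2% of the regions, were from ARPE-19, against 29.3%. The shares of the ARPE-19 class, of regions with both lines and of regions with an H7 peak were near those over the genome.

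No H7 peak lay over the 5′ end of any of the 8 genes. The share of all gene starts under a peak of either line was not computed. The closest H7 peak was 9.05 kb away, in GATA4, and came from H7 replicate 1 alone. Without that library the closest was 14.9 kb away, at SOX17. Of the centres of all 100-kb bins, 85.2% were at least as far from an H7 peak as GATA4. For EOMES, HAND1, CDX2 and SOX17 the shares were 51.6% to 77.4%. By their closest H7 library, these 5 genes were thus not farther from H7 peaks than most bin centres, which are not gene starts. The shares for FOXA2, TBXT and GATA6 were 37.2%, 36.0% and 6.32%. At GATA4, SOX17 and CDX2 the closest peak came from 1 H7 library. The nearest peaks of the other H7 libraries were 98.2 and 98.3 kb from GATA4. They were 93.9 and 355.8 kb from SOX17, and 81.2 and 749.7 kb from CDX2. In ARPE-19, peaks lay over the 5′ end of GATA6 in 2 of 3 libraries and within 1 kb of that of EOMES in 3 of 3. Every ARPE-19 library had its nearest peak closer than any H7 library at 3 of 8 genes (EOMES, GATA6 and SOX17), as did 50.8% of bin centres. The reverse held at 1 gene, FOXA2, against 6.7% of bin centres. At the other 4 genes the distances overlapped. Whether these gene counts differ from the shares of bin centres was not tested.

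**Figure D2:**
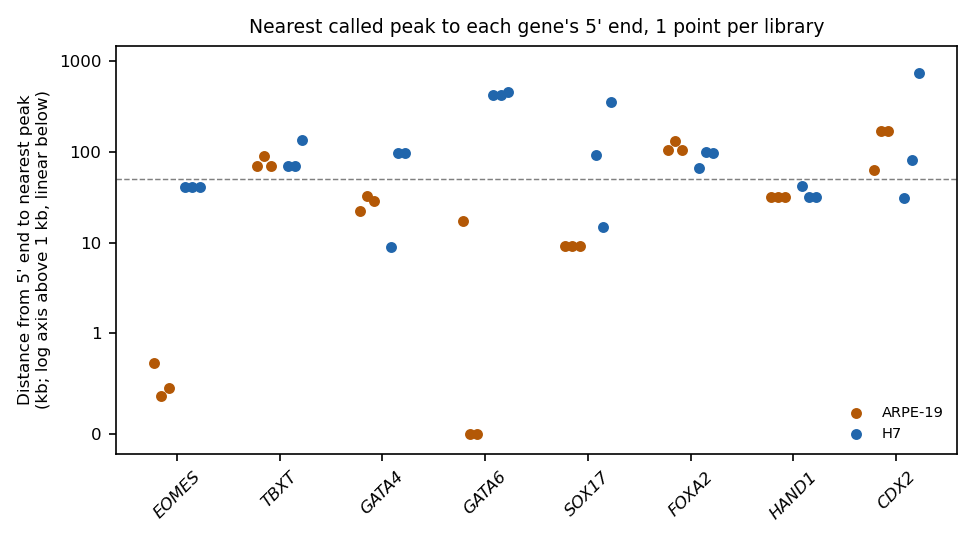
Distance in kb from each gene's 5′ end to the nearest called peak, 1 point per library (ARPE-19 orange, H7 blue), on an axis that is logarithmic above 1 kb and linear below; the dashed line marks 50 kb. The 3 H7 points of GATA6 lie at 428.6 to 464.5 kb, while the ARPE-19 points lie at 0 to 17.2 kb.

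EOMES (chromosome 3, 27757440 to 27764206, minus strand), the T-box factor of the earliest mesoderm and endoderm precursors, had the most regions, with 7. The ARPE-19 libraries had 6, 6 and 5 peaks and the H7 libraries 2 each, so the lines did not overlap. The region nearest the 5′ end lay inside the gene from 27763224 to 27763830, which is 376 to 982 bases downstream of that end. Each ARPE-19 library had it, with 9, 9 and 18 summit reads, and H7 had no call there. Replicate 3 thus had the most reads, and its -log10 q, as the authors' peak caller gave it, was 13.2, against 4.78 and 4.23 in replicates 1 and 2.

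The remaining EOMES regions lay outside the gene. The strongest ARPE-19 region lay 37.9 kb downstream of the gene, from 27719040 to 27719548, with 24, 28 and 27 summit reads at the 86.3rd, 94.6th and 90.4th percentile of -log10 q in their lists. Next came one 35.3 kb upstream, from 27799459 to 27800148, with 17, 22 and 22 reads. A weaker one, 29.0 kb downstream from 27728185 to 27728454, had 9 reads in each ARPE-19 library. These 3 regions had no H7 peak. Another ARPE-19 region, 3.45 kb downstream from 27753553 to 27753990, was called in 2 of 3 libraries with 13 and 12 reads.

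H7 had its own region at EOMES. It lay from 27707890 to 27708474, which is 49.0 kb downstream of the gene, and was the last region inside the limit of 50 kb over all 8 loci. Its summit reads were 7, 12 and 10 in H7 replicates 1, 2 and 3, at the 12.3rd, 79.6th and 36.7th percentile of their lists. Divided by the background the reads were 10.7, 20.3 and 15.8, and whether these differ beyond counting error was not tested. The summits spread over 265 bases. The first region beyond the limit lay 53.6 kb from GATA4, from 11671092 to 11671294, and was called in 2 ARPE-19 libraries.

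One EOMES region, 34.3 kb downstream from 27722432 to 27723165, was called in all 6 libraries. The summit reads were 11, 9 and 11 in ARPE-19 and 9, 8 and 13 in H7. Divided by the genome-wide background of each library, they were 22.8, 19.7 and 25.9 in ARPE-19 and 13.8, 13.5 and 20.5 in H7, with H7 replicate 3 above ARPE-19 replicate 2. On the log2 scale H7 stood at -0.53 relative to ARPE-19 (SE 0.23, exact permutation p = 0.2, n = 3 per line). It was 0.12 when the authors' fold over the local background was used, with its sign turned. The median difference over all 1543 regions called in all 6 libraries was -0.88.

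GATA6 (chromosome 18, 19749416 to 19782227, plus strand), a zinc finger factor of endoderm and heart, was open in ARPE-19 and had no H7 peak. The ARPE-19 libraries had 3, 5 and 4 peaks in the window and the H7 libraries had 0, 0 and 0. A region from 19749327 to 19749547, that is from 89 bases before to 131 bases after the 5′ end, was called in ARPE-19 replicates 2 and 3 with 7 and 8 summit reads. Divided by the background these were 15.3 and 18.8, where the local background was 1.44 and 1.91 times the genome-wide one. The floor of the H7 libraries at this position was not computed, and why H7 had no call there was not tested. The peaks stood at the 22.9th and 22.5th percentile of their lists.

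The strongest region of GATA6 lay inside the gene, from 19766444 to 19766910. Its 16, 15 and 14 summit reads in the 3 ARPE-19 libraries came to 33.1, 32.8 and 32.9 times the background, nearly equal values. A second ARPE-19 region of 3 libraries lay 28.3 kb downstream, from 19810552 to 19810957, with 13, 11 and 13 reads. The other regions, from 19770652 to 19770866 in the gene and from 19803742 to 19803912, were called in 2 ARPE-19 libraries each with 8 to 9 reads. None of these GATA6 peaks was among the 8622 strongest of its library.

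GATA4 (chromosome 8, 11561717 to 11617509, plus strand), which acts beside GATA6 in heart and endoderm, had 8 regions of which 6 were called in 1 library each. The ARPE-19 libraries had 4, 3 and 4 peaks and the H7 libraries 2, 1 and 1, so the lines did not overlap. Inside the gene, H7 replicate 1 had a peak from 11570768 to 11571010 with 6 summit reads, the region nearest the 5′ end. ARPE-19 replicate 1 had one from 11584338 to 11584568 with 4 reads. Both counts are at or within 1 read of the fewest that could be called in those libraries.

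The strong region of the GATA4 window lay 42.4 kb past the 3′ end of the gene, from 11659909 to 11660270, and was called in all 6 libraries. Its summit reads were 25, 28 and 32 in ARPE-19 and 14, 16 and 12 in H7. Over the background these were 51.8, 61.2 and 75.2 against 21.4, 27.0 and 18.96, so every ARPE-19 library lay above every H7 library. H7 stood at -1.48 relative to ARPE-19 on the log2 scale (SE 0.22, exact permutation p = 0.1, n = 3 per line). With the authors' fold over the local background in place of the genome-wide one it stood at -0.89. Of all regions called in all 6 libraries, 68.3% were likewise stronger in every ARPE-19 library and 1.04% in every H7 library. A region 48.3 kb downstream, from 11665826 to 11666163, had 11, 8 and 8 reads in ARPE-19 and none called in H7. In the RefSeq table of GRCh38 the next protein-coding genes on this side are NEIL2, a DNA glycosylase, and FDFT1, the squalene synthase, and whether either starts at these regions on hg19 was not tested.

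SOX17 (chromosome 8, 55370495 to 55373456, plus strand), the HMG-box factor of definitive endoderm, had 3 regions, each upstream of the gene. One lay 9.13 kb upstream, from 55361021 to 55361364, with 14, 12 and 18 summit reads in the ARPE-19 libraries and no call in H7. Both others came from H7 replicate 2 alone, with 7 reads each, at 25.8 kb (55344419 to 55344679) and 14.9 kb (55355322 to 55355634). The number of peaks was 1, 1 and 1 in ARPE-19 and 0, 2 and 0 in H7, so the lines overlapped, and 1 library accounts for all H7 peaks at this gene.

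HAND1 (chromosome 5, 153854532 to 153857824, minus strand), the factor of lateral mesoderm and heart, had as many peaks in one line as in the other, with 2, 1 and 1 in ARPE-19 and 1, 1 and 2 in H7. The region nearest the 5′ end lay 28.8 kb downstream of the gene, from 153825110 to 153825725. It had 21, 30 and 22 summit reads in ARPE-19, and 15 and 12 reads in H7 replicates 2 and 3. H7 replicate 1 had no peak there. In the RefSeq table of GRCh38 the next protein-coding gene on that side is SAP30L, a protein of the Sin3 histone deacetylase complex, and whether its start lies here on hg19 was not tested.

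A HAND1 region of H7 lay 42.8 kb upstream, from 153900610 to 153900972. It was called in H7 replicates 1 and 3 with 10 and 13 summit reads, at the 69.4th and 74.6th percentile of their lists, and ARPE-19 had no call there. Calls in exactly 2 H7 libraries without any in ARPE-19 made up 3.36% of all regions. The closest ARPE-19 peak, from 153899145 to 153899362 in replicate 1, had 8 reads. Per 1000 peaks of a library, HAND1 had 0.0651, 0.0730 and 0.232 peaks in H7 and 0.0450, 0.0249 and 0.0206 in ARPE-19, and was the 1 locus where the H7 values lay above the ARPE-19 values on that scale, as 10.7% of bins with a peak did. The numbers of peaks themselves were equal on average and overlapped between the lines, so the order appeared only after division by list length. At equal list length HAND1 had 1, 1 and 0 peaks in ARPE-19 and 1, 1 and 2 in H7, and the lines overlapped. The reverse order per 1000 peaks was found at GATA6 alone, whose window spans 133 kb, against 25.8% of 100-kb bins with a peak.

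CDX2 (chromosome 13, 28536205 to 28543317, minus strand), the homeobox factor of trophectoderm and hindgut, had 1 region. It lay 31.6 kb upstream of the gene, from 28574868 to 28575028, and came from H7 replicate 1 alone, with 10 summit reads. No ARPE-19 peak lay within 50 kb. Calls in 1 H7 library without any in ARPE-19 made up 17.1% of all regions.

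TBXT (chromosome 6, 166571146 to 166582157, minus strand), which drives mesoderm and notochord formation, and FOXA2 (chromosome 20, 22561642 to 22566101, minus strand), a forkhead factor of endoderm and floor plate, had no peak of any library within 50 kb. Of all bins of 100 kb between the first and last peak of each chromosome, 17.1% had no peak in any library, while the windows of these genes span 111 and 104 kb. The nearest region to TBXT lay 59.5 kb downstream, from 166511209 to 166511683, and was called in 2 libraries of each line with 5 to 9 reads. At FOXA2 the nearest peak of each H7 library was 67.4, 99.6 and 98.6 kb upstream in replicates 1, 2 and 3. The nearest ARPE-19 peaks were 106.3, 132.0 and 106.3 kb away. The 3 H7 peaks within 100 kb of FOXA2 did not overlap each other, and each had 6 to 11 reads.

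Taking the loci one by one, the 3 ARPE-19 libraries each had more peaks than any H7 library at 3 of the 6 loci with a peak, namely EOMES, GATA4 and GATA6. Of all 100-kb bins with a peak, 41.7% showed the same, while the windows of EOMES, GATA4 and GATA6 span 107, 156 and 133 kb. H7 had more at 0 of 8 loci, against 2.07% of bins. With lists of equal length the lines overlapped at all 8 loci, where 14% of bins still had more ARPE-19 peaks and 9.69% more H7 peaks. The loci share the same 6 libraries and are not separate trials.

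**Figure D3:**
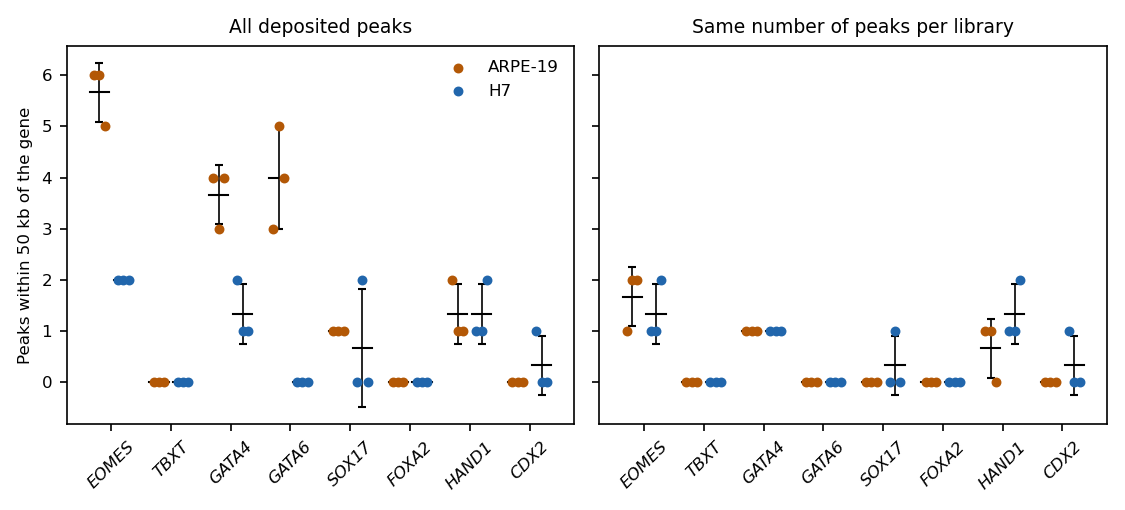
Number of peaks within 50 kb of each gene, 1 point per library (ARPE-19 orange, H7 blue) with the mean and SD of the 3 libraries in black, for all deposited peaks (left) and for the 8622 strongest peaks of each library (right). On the left the lines are apart at EOMES, GATA4 and GATA6, and on the right they overlap at every gene.

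**Figure D4:**
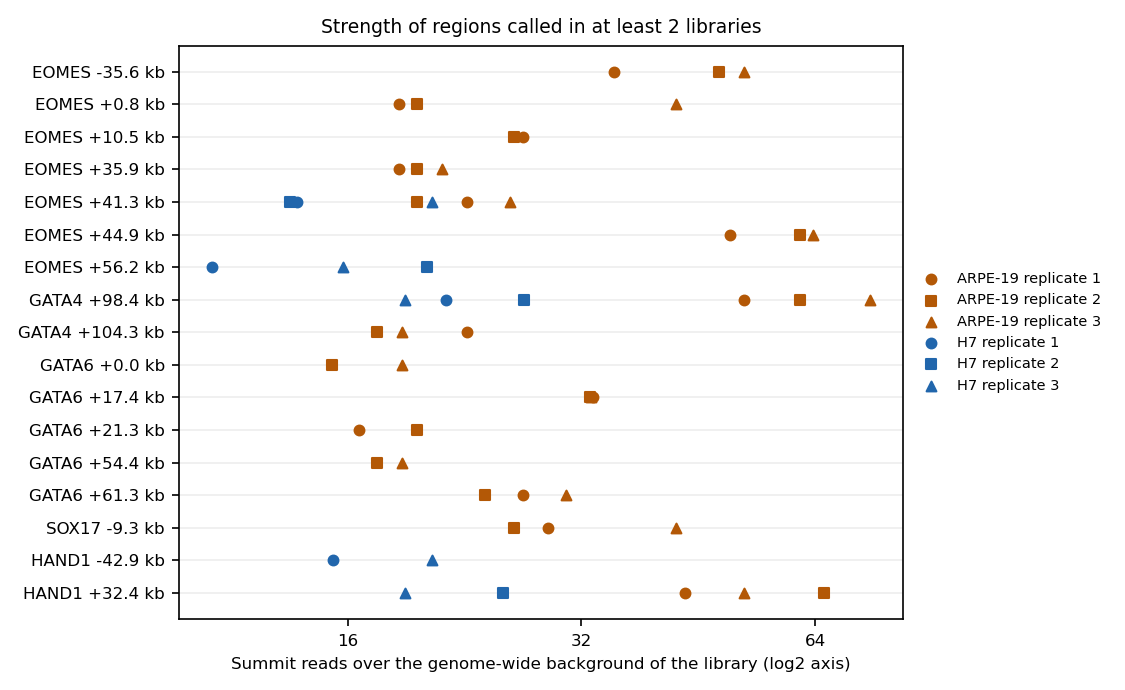
Summit reads divided by the genome-wide background of the library (log2 axis) for the 17 regions called in at least 2 libraries, named by gene and median summit distance from the 5′ end; symbols are libraries, orange for ARPE-19 and blue for H7. At the GATA4 region called in both lines every ARPE-19 value lies above every H7 value, as at 68.3% of all regions called in all 6 libraries. The HAND1 region called in both lines has the same order with 2 H7 values, because H7 replicate 1 had no call there. At the EOMES region called in both lines the values overlap.

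Strength could be compared between the lines at the 3 regions with peaks of both. At the HAND1 region the 5 values over background were 43.5, 65.6 and 51.7 in ARPE-19 and 25.3 and 18.96 in H7, and no test was made because H7 replicate 1 had no call. The 8 regions called in each ARPE-19 library and never in H7 had 8 to 28 summit reads, and the H7 region at EOMES had 7 to 12. Of the 6 regions inside or on the edge of a gene, 5 had ARPE-19 peaks, at EOMES, GATA4 and GATA6, and 1 had an H7 peak, at GATA4. Each region inside GATA4 came from 1 library. Of all 27 regions, 21 (77.8%) had an ARPE-19 peak and 9 (33.3%) an H7 peak, and over the genome 30.8% had an H7 peak. Regions without an ARPE-19 peak had calls in 3, 2 or 1 H7 libraries, which made up 3.70%, 3.70% and 14.8% of the 27. Over the genome these shares were 1.82%, 3.36% and 17.1%, so the share with an ARPE-19 peak was near that over the genome. The share for regions inside genes over the genome was not computed.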

How the data were processed

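ATAC-seq peak lists of 6 libraries were used, and 6 samples of 4C, which maps contacts of a chosen site, were left out. MACS2, bedtools and hg19 are named in the submitters' processing notes, and versions, the aligner and read filters are not given in the sources used here. Each deposited list gives positions, a score (10 times -log10 q), a ratio (fold enrichment of the summit over the local background) and -log10 p and q, as the authors' peak caller wrote them for each library alone. Gene positions on hg19 came with the choice of loci, and strands from the RefSeq promoter table or general knowledge.

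Peaks that shared 1 base were merged into regions. Whole summit reads and the background were solved from fold and -log10 p, which they met within 0.001 for at least 99.988% of the peaks of every library. They may include duplicates, and intervals for counting error were not computed. Library values were compared by exact two-sided permutation tests over 20 assignments. Background shares were taken over all regions and over 100-kb bins between the first and last peak of each chromosome. The members were chosen with earlier results of these data known. Regions named are those called in 3 libraries of a line, those nearest a 5′ end and, where no region had 3 H7 libraries, the best H7 region; others are named after their values were seen. The steps were tested on simulated data. The alternatives tried were a stricter -log10 q of at least 5, equal list length, windows of 20 and 100 kb, a local background of at most 5 times the genome-wide one, summits, 50% cover, 2 of 3 libraries, peaks per 1000, the authors' fold, a replicate block and leaving out each library. The software was Python 3.11.15 with the packages pandas 2.3.3, matplotlib 3.10.9, scipy 1.17.1 and numpy 2.4.6.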

Additional observations from a re-analysis of the deposited data

How the results depend on the processing

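The number of peaks in the windows kept its direction under each alternative except equal list length, where the log2 difference was 0.38; that setting keeps fewer ARPE-19 peaks by construction. Covered bases kept their direction throughout, with log2 differences from -5.38 within 20 kb, where 1 H7 library had no peak, to -0.12 at equal list length (exact permutation p = 0.8). The difference in share was -0.0091 percentage points with windows of 20 kb, and the EOMES strength difference was 0.12 with the authors' fold; the cause was not tested. Regions of 3 ARPE-19 and no H7 libraries, 8 with all peaks, numbered 1 at equal list length and 3 within 20 kb. The H7 class of 1 region fell to 0 under a -log10 q limit of 5, at equal list length, within 20 kb and with 50% cover, and 2 with a call in 2 of 3 libraries. Regions called in all libraries numbered 0 under that limit and within 20 kb, and 1 at equal list length and with 50% cover. Loci with more peaks in every ARPE-19 library numbered 0 at equal list length and 1 per 1000 peaks; the reverse held at 1 locus within 100 kb and at 1 per 1000 peaks. At SOX17 the mean difference of H7 from ARPE-19 turned to 0.33 peaks at equal list length.

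Leaving out each library in turn gave log2 differences of -1.52 to -1.38 in peak number and -1.59 to -1.37 in covered bases, 0.0058 to 0.0153 percentage points in share, 8 to 10 ARPE-19 and 1 to 2 H7 regions, 2 to 3 regions in all libraries, 3 to 4 and 0 loci apart, and strength differences of -0.73 to -0.43 at EOMES and -1.62 to -1.34 at GATA4. Whether the replicate numbers pair the libraries is not known. Deviations of same-numbered libraries correlated at -0.0144, 0.0183 and -0.0187 over 1543 regions, which cannot show whether they were handled together. With the replicate block the differences stayed at -1.47, 0.0113, -1.46, -0.53 and -1.48, each with an exact p of 0.25, the smallest that 3 pairs allow. Strength could not be fitted at EOMES with a -log10 q limit of 5 or equal list length, nor at GATA4 with that limit, because a library then lacked the peak.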

Other observations

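The stretch without H7 peaks around GATA6 was long, and was examined after the distances had been seen. No H7 library had a peak on chromosome 18 from 19320824 to 20397269, a span of 1076 kb. ARPE-19 had 24 regions inside it, 10 of them called in 3 of 3 libraries. Every region there lacks an H7 call by construction, because the stretch is bounded by H7 peaks. Over the genome, regions without an H7 call numbered 22042 in 3 of 3 ARPE-19 libraries, 11776 in 2 and 24806 in 1. The share called in 3 of 3 libraries among the 24 regions was near the share that these counts give, and a difference was not tested. The nearest H7 peak was 428.6 kb from the GATA6 5′ end, and 6.32% of the centres of 29397 bins of 100 kb were at least as far from any H7 peak. At TBXT both lines lacked peaks over nearly the same stretch on chromosome 6, from 166511599 to 166744221 in ARPE-19 and from 166511684 to 166744177 in H7.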
